A study of Mus musculus with 6 samples.

Results

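Histone lysine demethylases remove methyl groups from histone tails, and 10 of their genes were followed here in mouse lung endothelial cells that lack HIF-2α and in control cells, among 12277 genes tested in all. The members were chosen as genes of this enzyme family, by a rule that uses no measured value, though with earlier results of these data known: Kdm1a, Kdm2a, Kdm2b, Kdm3a, Kdm3b, Kdm4a, Kdm4b, Kdm4c, Kdm5b and Kdm6b. Each was read from the probe sets, the array's groups of short probes for a transcript, whose annotation names that gene alone. Where a gene had several, the one with the highest mean over the 6 arrays stood for it, and the others served as a check. The 10 genes had 25 such probe sets, 9 of which lay under a signal of 16 intensity units, taken here as the floor, in all 6 arrays.

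RNA of 3 knockout samples and 3 control samples was hybridised to 1 Affymetrix expression array each, after 16 h at 0.5% oxygen. Knockout cells were taken from the lungs of mice that carried VE-Cadherin-Cre and were HIF-2a floxed/floxed. The labels give the controls in 3 ways that differ: as VE-Cadherin-Cre HIF-2a floxed/WT, as Hif-2a floxed/floxed and as wild type. Cre was driven by the VE-Cadherin promoter, which is active in endothelium, and the isolated cells had been selected repeatedly with endothelial markers. HIF-2α, the product of Epas1, is a transcription factor that accumulates when oxygen is low. Every array was at low oxygen, so the comparison is of genotype and no response to oxygen can be read. The labels used here do not say whether samples of a group were separate cultures or animals, and the p-values therefore describe spread among arrays that may be technical.

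The JmjC demethylases are dioxygenases that need iron, α-ketoglutarate and molecular oxygen, the same requirements as the prolyl hydroxylases that mark HIF proteins for degradation. Kdm1a (LSD1) belongs to a separate class and uses flavin. The family is sorted by the lysine it acts on: marks of active promoters (H3K4), of transcribed gene bodies (H3K36), of heterochromatin (H3K9) and of Polycomb repression (H3K27). In other cells Kdm3a and Kdm4b are known as genes that HIF-1 induces in hypoxia.

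Of the 10 members, 3 fell in the knockout arrays, namely Kdm5b, Kdm6b and Kdm2a, and 0 rose (limma, Benjamini-Hochberg adjusted over all genes, threshold 0.05). Over all genes 13.7% passed that threshold, 5.07% as lower and 8.63% as higher. At an unadjusted p under 0.05 there were 6 members, against 32.4% of all genes, and of these Kdm2b was higher and Kdm1a and Kdm3a were lower, beside the 3 called genes. The median log2 difference of the 10, knockout minus control, was -0.26, against 0.0071 over all genes tested. Arrays of the groups did not overlap in 6 of 10 members, against 36.2% of all genes. Of the 3 calls, that of Kdm5b held whichever single array was left out, and the other calls did not.

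The arrays were not equally alike within groups, which bears on every value given here. Controls 1 and 3 differed from each other by an SD of 0.14 over genes on the log2 scale, whereas the other pairs within a group differed by 0.31 to 0.68. Pairs across the groups differed by 0.52 to 0.92. Knockout 3 was nearer to each control (0.52 to 0.58) than to knockout 2 (0.68). With controls 1 and 3 averaged into 1 sample, 194 of all genes passed, and Kdm5b was the 1 member among them. The targeted gene, Epas1, read 8920, 9397 and 9859 in knockouts and 9611, 9590 and 9444 in controls (adjusted p = 0.753). Where its probes lie relative to the deleted part was not analysed here, so this signal checks nothing about the genotype. Of 8 endothelial markers all but Vwf were bright in both groups. Tek, Tie1 and Pecam1 fell, of which 0 to 1 kept the call with 1 array left out, and the summed marker level was 78093 to 87796 in knockouts and 99118 to 108104 in controls. Of 5 leukocyte markers read, 4 lay under the floor throughout, Ptprc among them. The other, the lysosomal protein gene Cd68, fell to between 756 and 1126 in knockouts, against 3688 to 4252 in controls. All 6 fibroblast, 5 mural, 6 lung epithelial and 3 mesothelial markers were under the floor in every array. In bulk RNA, fewer cells of a type and less RNA per cell cannot be told apart. The part of the endothelial markers and of Cd68 in the results was not tested.

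Kdm5b, which removes methyl groups from H3K4 and is known as a repressor at promoters, had the largest difference of the 10 members. Its signal was 451, 423 and 509.9 intensity units in knockouts 1 to 3, against 1374, 1322 and 1399 in controls 1 to 3. All knockout arrays lay far below all controls, and the spread inside each group was small beside the gap. The means were 461 ± 44.6 in knockouts and 1365 ± 39.3 in controls (SD, n = 3 each), a 2.96-fold lower level in knockouts. On the scale of log2(intensity + 16) the difference was -1.54 ± 0.08 (SE, limma adjusted p = 0.00276). By p it ranked 41 among the 12277 genes, and by size 90 among the 623 genes called lower.

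A further bright probe set of Kdm5b gave the same direction. It read 332, 331 and 291 in knockouts, against 947, 1248 and 1066 in controls, a difference of -1.72 ± 0.12 (adjusted p = 0.00829 over all probe sets). The remaining 2 probe sets of Kdm5b lay under the floor in all arrays. When single arrays were left out, the difference ran from -1.61 to -1.48 and stayed past the threshold, with adjusted p from 0.0032 to 0.0267. It was -1.53 (adjusted p = 0.0274) with controls 1 and 3 averaged. It was also called in all 14 alternatives that changed the scaling, the filter or the model.

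**Figure D1:**
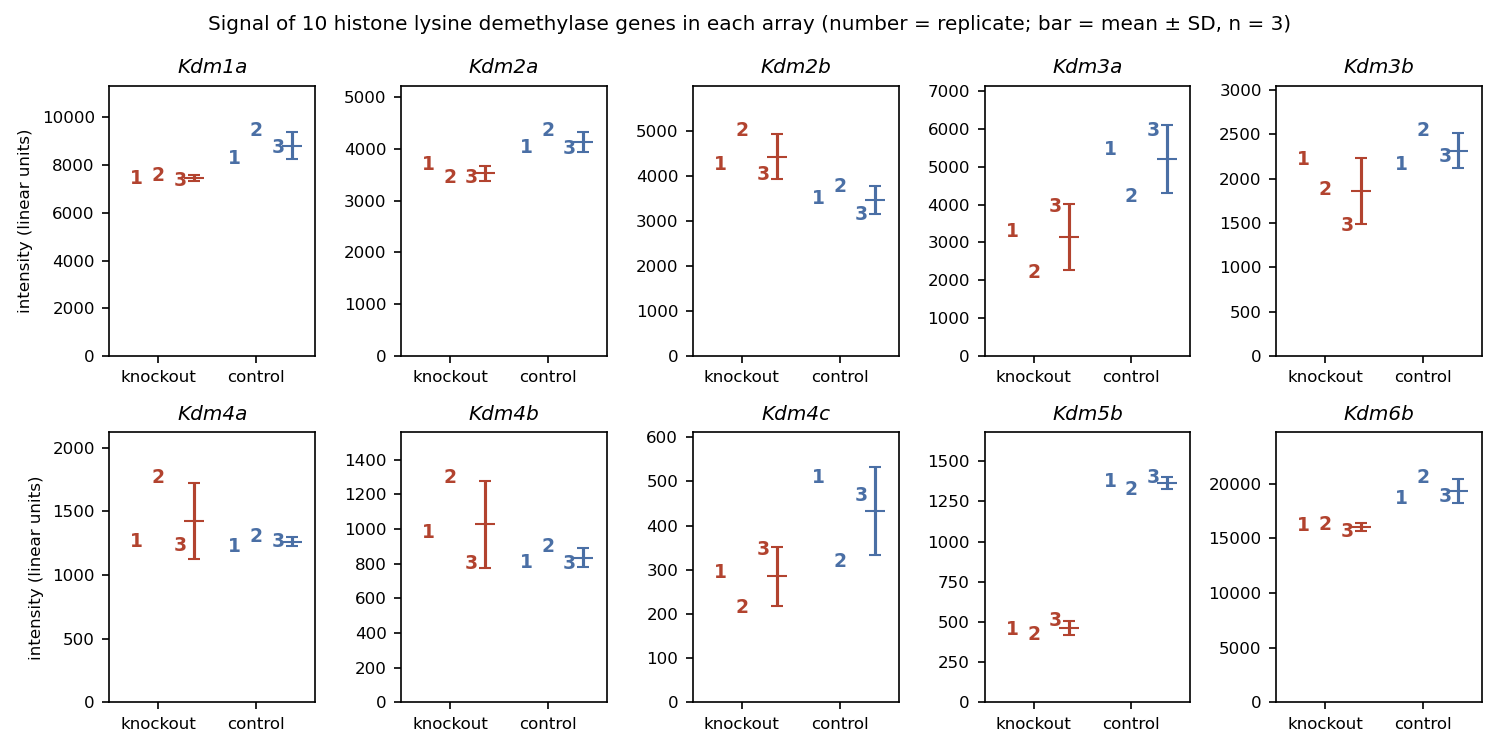
Signal of the 10 genes in each array on a linear axis from 0, with the replicate number as the mark and the mean ± SD of 3 arrays beside it. Kdm5b lies between 423 and 509.9 in knockouts and between 1322 and 1399 in controls, whereas Kdm4a, Kdm4b, Kdm3b and Kdm4c overlap between the groups.

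Kdm1a, the flavin-dependent H3K4 demethylase of the CoREST complex, was bright in both groups and just missed the threshold. It averaged 7451 ± 116 in knockouts and 8820 ± 581 in controls (SD, n = 3 each). The 3 knockout arrays, at 7353 to 7579, lay below the 3 controls, at 8276 to 9431. The log2 difference was -0.24 ± 0.05 (adjusted p = 0.0524), with a 95% interval of -0.38 to -0.10. Its dimmer probe set gave -0.18 (adjusted p = 0.195 over all probe sets), also without overlap. The difference of Kdm1a was thus 15.5% of the control mean, against 66.2% for Kdm5b.

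Kdm6b (JMJD3), which removes methyl groups from H3K27 and is known as an inducible gene in inflammation, fell by a small amount. Its signal was 16174, 16243 and 15579 in knockouts, against 18635, 20558 and 18806 in controls. The groups did not overlap, and control 2 was the highest array. The mean was 17.2% lower in knockouts, a log2 difference of -0.27 ± 0.05 (adjusted p = 0.0318). This call was lost with controls 1 and 3 averaged (adjusted p = 0.0992) and in 4 of 6 cases of 1 array left out. Over all 6 cases the difference ran from -0.23 to -0.30, and the smallest, without control 2, kept the call (adjusted p = 0.0398). The probe set belongs to a type whose probes can also match other transcripts. A further probe set lies in an annotation entry shared by Kdm6b and 1700064E03Rik, a name that the RefSeq gene table lists as a synonym of Kdm6b, and it was left out by the rule. It read 6126, 7149 and 5999 in knockouts, all below the 8184, 9375 and 8396 in controls. The other 2 probe sets that name Kdm6b alone were dim in both groups, at 4.9 to 18.5 in knockouts and 5.2 to 19.4 in controls.

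The H3K36 demethylases Kdm2a and Kdm2b, both of which bind unmethylated CpG islands through a CXXC zinc finger, differed in opposite directions. Kdm2a fell slightly, to 3693, 3443 and 3449 in knockouts, against 4030, 4346 and 4013 in controls. That was 14.6% of the control mean, with no overlap and a log2 difference of -0.23 ± 0.05 (adjusted p = 0.0478). The call of Kdm2a ended with any single array left out (adjusted p from 0.0714 to 0.143) and with controls 1 and 3 averaged (0.133). Its second probe set gave -0.46 ± 0.11 (adjusted p = 0.0862 over all probe sets) without overlap. The third gave 0.02 ± 0.21, with 457 to 591 in knockouts and 437 to 700.4 in controls, so the probe sets of Kdm2a did not all point the same way. The remaining 4 lay under the floor.

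Kdm2b, which also recruits a Polycomb complex to CpG islands, was higher in every knockout array without passing the test. It read 4262, 4999 and 4033 in knockouts, against 3499, 3758 and 3148 in controls. The log2 difference was 0.35 ± 0.11 (adjusted p = 0.107), with a 95% interval of 0.06 to 0.64. The second probe set gave 0.40 ± 0.11 (adjusted p = 0.109 over all probe sets), again without overlap. With the spike-in level of the arrays as a covariate the difference of Kdm2b was 0.18 (adjusted p = 0.598).

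**Figure D2:**
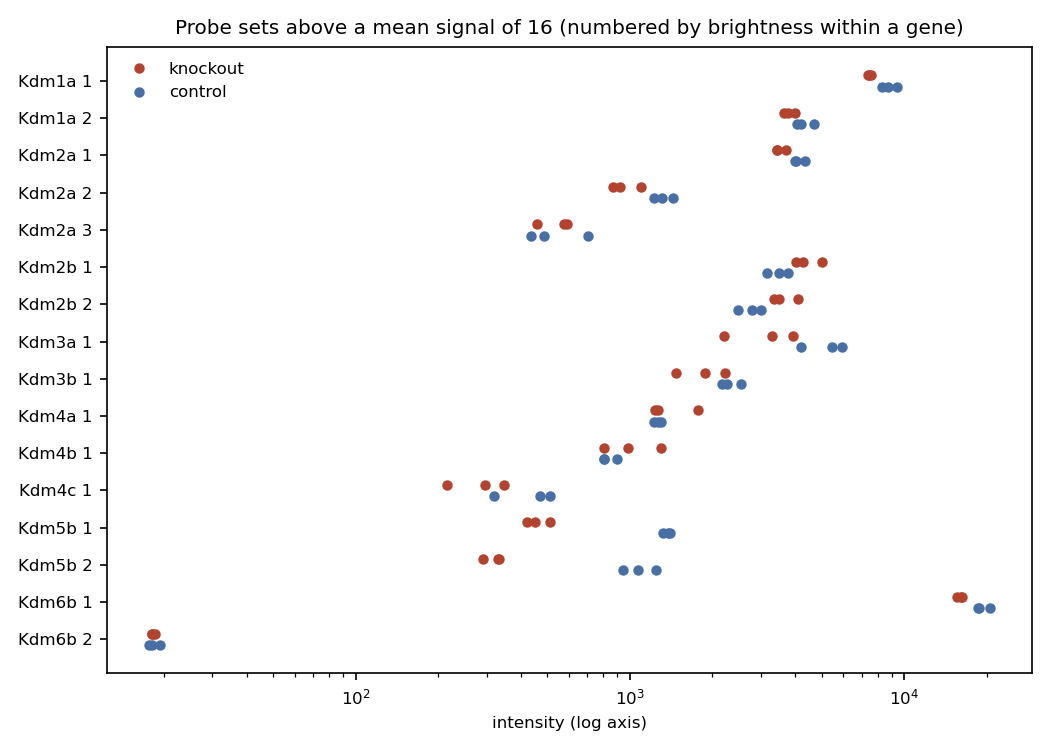
Signal in each array of the 16 probe sets of the 10 genes whose mean exceeds 16 intensity units, on a log axis, with knockout points above control points and probe sets numbered by brightness within a gene. The first 2 probe sets of Kdm5b separate the groups, and those of Kdm1a, Kdm2a and Kdm2b do so by less.

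Kdm3a, the H3K9 demethylase known for its induction by HIF-1, was lower in all 3 knockout arrays but varied widely inside both groups. Its signal was 3289, 2208 and 3943 in knockouts, against 5450, 4201 and 5944 in controls. Knockout 3, the highest of its group, came close to control 2, the lowest of its group. The means were 3147 ± 876 in knockouts and 5198 ± 899 in controls (SD, n = 3 each), or 39.5% lower in knockouts. The log2 difference of -0.75 ± 0.27 did not pass (adjusted p = 0.136), and its 95% interval of -1.44 to -0.05 leaves room for a larger or a much smaller change. With 1 array left out it ran from -0.93 to -0.51, with adjusted p from 0.0743 to 0.352.

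Its relative Kdm3b, which also acts on H3K9, had overlapping groups. It read 2218, 1882 and 1474 in knockouts, against 2159, 2539 and 2257 in controls. Knockout 1 lay inside the range of the controls. The log2 difference was -0.33 ± 0.17 (adjusted p = 0.256), with a 95% interval of -0.78 to 0.11.

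None of the KDM4 genes, which act on both H3K9 and H3K36, passed the test, and they did not point the same way. Kdm4c read 295, 214 and 347 in knockouts, against 509, 320.0 and 469 in controls. Knockout 3 thus lay above control 2, and the log2 difference was -0.57 ± 0.26 (adjusted p = 0.205). Kdm4b, like Kdm3a known as a HIF-1 target, read 981, 1298 and 803 in knockouts, against 805, 897 and 802 in controls. Its log2 difference of 0.27 ± 0.19 (adjusted p = 0.393; 95% interval -0.23 to 0.77) rested mainly on knockout 2, without which it was 0.09. Kdm4a read 1264, 1767 and 1236 in knockouts, against 1227, 1300 and 1262 in controls. Knockout 2 was the one array that stood apart, and the log2 difference of 0.15 ± 0.15 (adjusted p = 0.565) was -0.01 without it. The controls of Kdm4a lay within 2.9% of each other as a coefficient of variation, against 21.0% among the knockouts.

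Kdm3a, Kdm4c and Kdm5b shared an order of arrays inside the groups: knockout 2 lowest, knockout 3 highest, and control 2 the lowest control. For Kdm5b this held in the probe set that stood for the gene. In its other bright probe set knockout 3 was the lowest knockout and control 2 the highest control. Of all genes tested, 18.1% had that order. The opposite order held for Kdm1a, Kdm2b, Kdm4a, Kdm4b and Kdm6b, and for 35.4% of all genes. Together 8 of the 10 members followed one or the other, against 53.5% of all genes. The bioB and bioC spike-in controls, RNA added at hybridisation, stood at mean log2 levels of 11.03, 11.08 and 10.86 in knockouts and 10.66, 10.88 and 10.78 in controls. They thus had the opposite order to Kdm3a and Kdm4c and were highest in knockouts 1 and 2. Since knockouts 1 and 2 stood above every control, the spike-in level was partly tied to genotype. A fit with it as a covariate can take up part of a genotype difference and cannot separate them. The cause of the differences was not tested. With that level as a covariate the log2 difference was -0.22 for Kdm3a (adjusted p = 0.792) and 0.0094 for Kdm4c (adjusted p = 1), whereas it was -1.38 for Kdm5b (adjusted p = 0.0187) and -0.37 for Kdm6b (adjusted p = 0.0481).

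**Figure D3:**
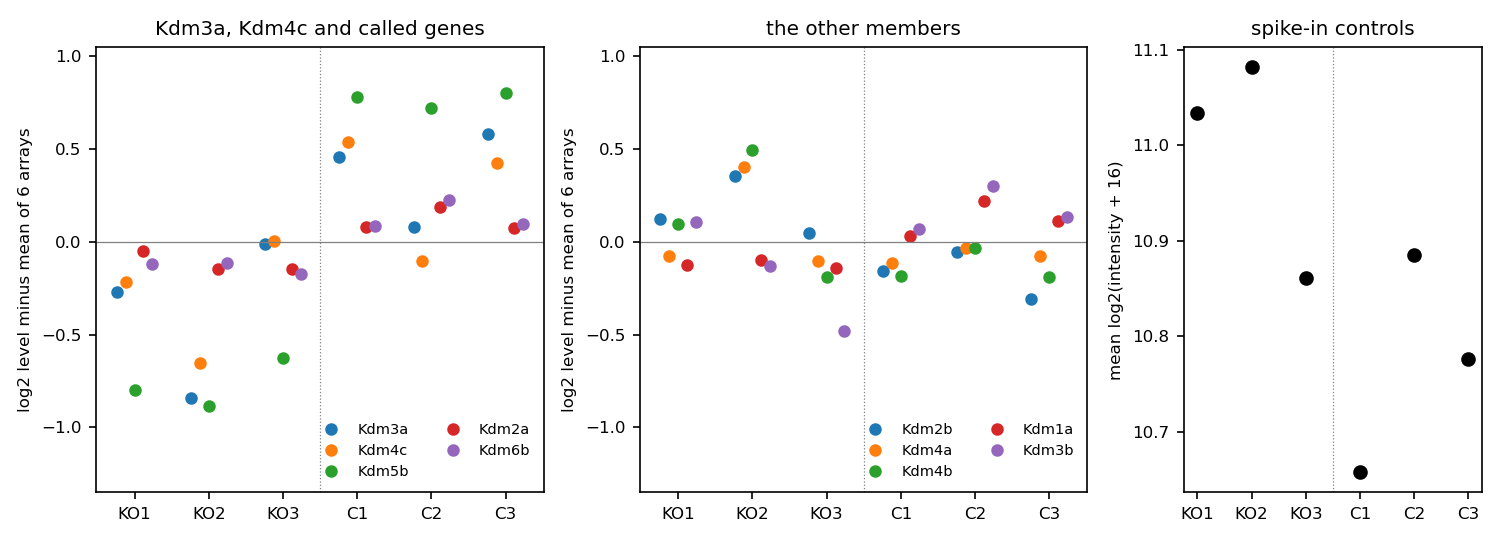
Log2(intensity + 16) of each gene minus its mean over the 6 arrays (left and centre), for knockouts 1 to 3 (KO1 to KO3) and controls 1 to 3 (C1 to C3), with the mean log2 level of the bioB and bioC spike-in controls at the right. Kdm3a and Kdm4c are lowest in knockout 2, where the spike-in level is highest at 11.08.

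**Figure D4:**
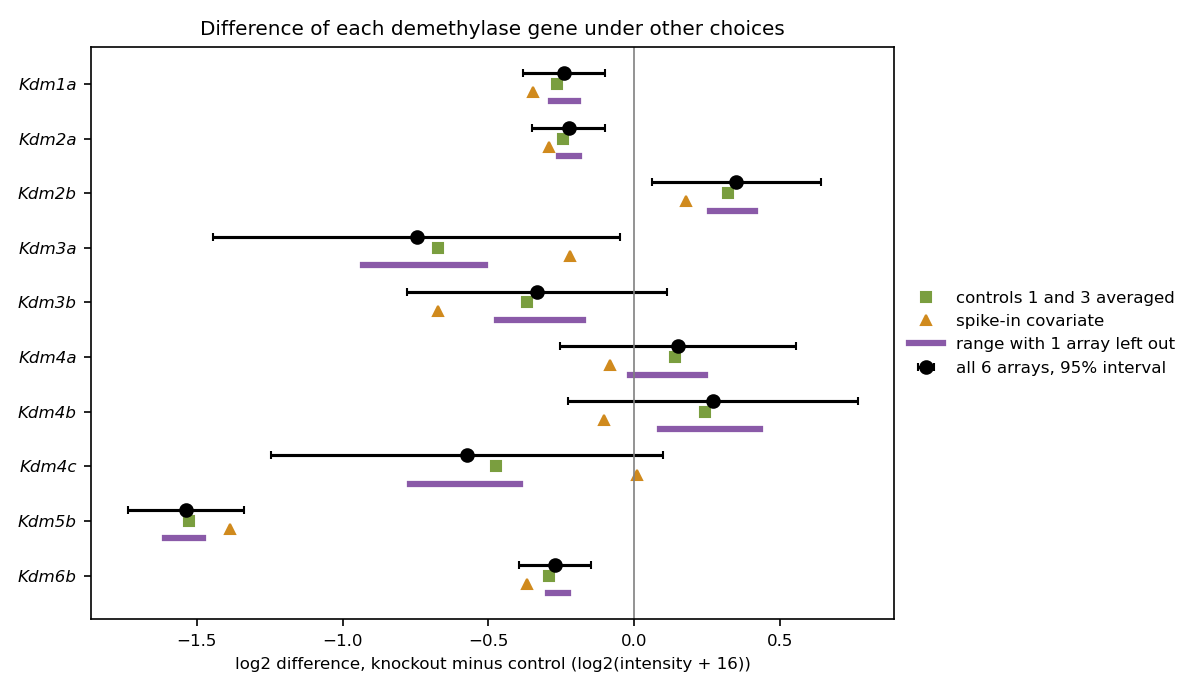
Log2 difference of each gene, knockout minus control, with its 95% interval over all 6 arrays (black), with controls 1 and 3 averaged (squares), with the spike-in covariate (triangles) and the range over 1 array left out (bars). The estimates for Kdm5b lie between -1.61 and -1.38, while Kdm4c, at -0.57 over all arrays, is at 0.0094 with the covariate.

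The DNA before the start sites is shown for the members with the largest differences, Kdm5b, Kdm3a and Kdm4c, since HIF factors are known to bind the core letters ACGTG or GCGTG. Each sequence is the 250 bases before a RefSeq start of the gene on build GRCm38.p6, read 5′ to 3′ on the strand of the gene, with matches to either core on either strand in capitals. Kdm5b lies on the plus strand at chr1:134559928-134560177, Kdm3a on the minus strand at chr6:71632918-71633167, and the start of Kdm4c shown on the plus strand at chr4:74251629-74251878.
Kdm5b: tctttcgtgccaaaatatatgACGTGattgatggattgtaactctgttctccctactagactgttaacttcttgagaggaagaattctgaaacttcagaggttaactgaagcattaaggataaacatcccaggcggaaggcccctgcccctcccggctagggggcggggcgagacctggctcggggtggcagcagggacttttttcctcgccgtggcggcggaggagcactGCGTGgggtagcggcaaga
Kdm3a: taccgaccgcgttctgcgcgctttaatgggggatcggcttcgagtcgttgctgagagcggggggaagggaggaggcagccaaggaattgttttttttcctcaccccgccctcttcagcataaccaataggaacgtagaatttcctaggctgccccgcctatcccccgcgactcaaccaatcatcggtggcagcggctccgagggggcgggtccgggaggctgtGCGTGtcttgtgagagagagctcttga
Kdm4c: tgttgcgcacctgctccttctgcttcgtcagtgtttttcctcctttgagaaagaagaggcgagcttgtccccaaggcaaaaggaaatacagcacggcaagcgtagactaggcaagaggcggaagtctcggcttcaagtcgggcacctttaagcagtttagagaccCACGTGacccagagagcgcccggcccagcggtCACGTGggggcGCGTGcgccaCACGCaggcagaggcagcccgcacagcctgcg
The Kdm5b window held 1 match to ACGTG, 229 bases before the start, and 1 to GCGTG, 19 bases before it. The Kdm3a window held 1 GCGTG, 27 bases before the start, and the windows of its other 2 starts held neither. The Kdm4c window held 2 copies of CACGTG, the palindrome known as an E-box, each of which contains ACGTG on both strands, and 2 matches to GCGTG. The other start of Kdm4c held no match.

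Of the members, 6 had windows that were read, with 12 starts between them, and 7 of the 12 windows held ACGTG or GCGTG. Member windows on a chromosome that was set aside were not read, whereas the shares over all windows kept it. A member without a window here may therefore still have a listed start. Of all 32851 promoter windows listed there, 38.6% did, and among the 12681 windows of genes tested 54.2% did. The 7 windows belonged to Kdm5b, Kdm3a, Kdm4c and Kdm2b, whose 4 windows all held GCGTG. The Kdm2b windows at chr5:122900368-122900617 and chr5:122900351-122900600 overlap and hold the same matches. The 7 of 12 thus counts those matches more than once. The windows of Kdm1a and Kdm4a held neither core. A match is a description of letters and not a site of binding. Kdm2a, Kdm4b, Kdm6b and Kdm3b are without a printed promoter.

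Other JmjC and LSD family genes differed in both directions. Of 23 on the list, 19 were tested, of which Jmjd4 and Riox2 rose, Jarid2 fell and 16 did not pass. Over all genes 13.7% passed. Their median log2 difference was 0.11, against -0.26 for the 10 demethylases. That list also holds genes named as lysine demethylases, so the medians do not set demethylases apart from other genes. Kdm7a, Kdm5a and Kdm6a, named after their values were seen, had differences of -2.77, -1.63 and -0.83. Those of Kdm8 and Kdm1b were 1.02 and 0.21, and none of these genes passed. Of the 19 differences, 11 were positive and 8 negative, where 7610 of all 12277 genes tested were positive. Jarid2, a Polycomb subunit that has lost demethylase activity, read 1151, 1243 and 1775 in knockouts, against 2663, 2733 and 2649 in controls (log2 difference -0.97 ± 0.18, adjusted p = 0.0346). Its groups did not overlap, and its 2 further probe sets were lower as well, by -0.95 and -1.30. Riox2, a ribosomal oxygenase, averaged 1446 ± 98.5 in knockouts and 1080 ± 42.9 in controls (adjusted p = 0.0231). Its second probe set gave 0.32 (adjusted p = 0.0351 over all probe sets), whereas the third pointed the other way, with means of 397 in knockouts and 437 in controls (log2 difference -0.15, adjusted p = 0.655). Jmjd4, which hydroxylates a translation termination factor, was under the floor in all controls and at 72.4 to 125 in knockouts, at least 6.12-fold higher (adjusted p = 0.00924). Of the list, Kdm4d, Kdm5d, Uty and Hr lay under the floor in every array.

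Among subunits of the complexes in which demethylases act, Bcor, Dpy30, Wdr5 and Gse1 rose and Ncoa6 fell. The other 19 of the 24 tested did not pass, and higher calls outnumbered lower ones over all genes as well (8.63% against 5.07%). The median log2 difference of the 24 was 0.06. Bcor, the scaffold of the Polycomb complex that holds Kdm2b, read 2107, 2073 and 2045 in knockouts, against 1359, 1636 and 1478 in controls (log2 difference 0.48 ± 0.07, adjusted p = 0.0245). Dpy30 and Wdr5, core subunits of H3K4 methyltransferase complexes, rose by 0.70 ± 0.07 and 0.68 ± 0.12 (adjusted p = 0.012 and 0.0316). Gse1, found with the CoREST complex of Kdm1a, rose by 1.52 ± 0.19 (adjusted p = 0.0161) at dim signals of 69.3 to 96.9 in knockouts and 12.6 to 25.1 in controls. Ncoa6, a subunit of H3K4 methyltransferase complexes that also hold Kdm6a, had a log2 difference of -0.24 ± 0.05 and fell (adjusted p = 0.0394).

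Among genes listed as histone lysine methyltransferases, a family with the opposite activity, Kmt5a rose and Kmt2e fell. The other 24 of the 26 tested did not pass, where 13.7% of all genes did, and the median log2 difference was 0.09. Kmt2e (MLL5), a SET domain protein, read 2283, 2400 and 2960 in knockouts, against 5420, 4841 and 5534 in controls, a difference of -1.05 ± 0.12 (adjusted p = 0.0139). Kmt5a, which places the first methyl group on H4K20, averaged 7154 ± 514 in knockouts and 4953 ± 263 in controls (adjusted p = 0.0189). Ezh2, the methyltransferase that Kdm6b opposes, read 1905 to 2899 in knockouts and 1981 to 2261 in controls (adjusted p = 0.713). Of the called genes of these 3 lists, 0 kept their call without control 1, without control 3, without knockout 1 or with controls 1 and 3 averaged, where Kdm5b did.

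**Figure D5:**
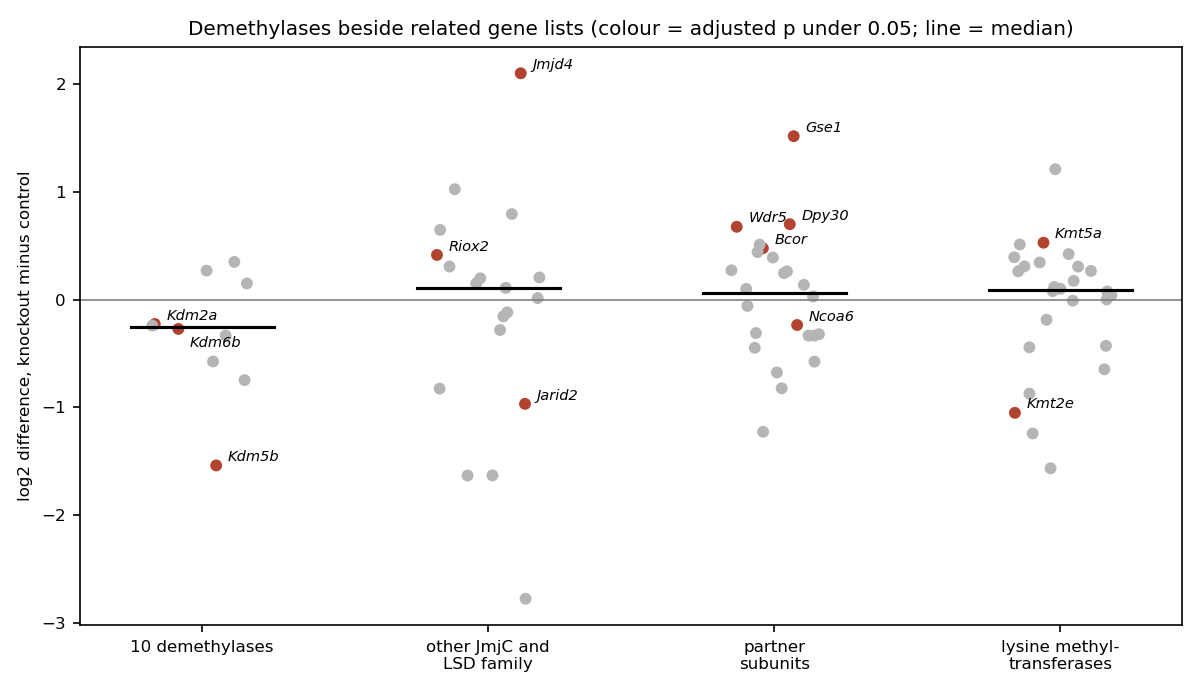
Log2 difference, knockout minus control, of each tested gene of the 10 demethylases, the other JmjC and LSD family genes, their partner subunits and the histone lysine methyltransferases, with the list median as a line and genes past the threshold in colour. The medians are -0.26, 0.11, 0.06 and 0.09, and Kdm5b is the lowest of the 10 demethylases at -1.54. The other JmjC and LSD family genes also include lysine demethylases, such as Kdm7a.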

How the data were processed

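RNA of the 6 samples went through amplification and biotin labelling before hybridisation, per the labels' protocols. The authors deposited linear intensities, with a value for each of 45101 probe sets in each array. MAS5 and GCRMA appear in the submitters' processing notes, with neither a version nor a role. Quantiles were nearly equal between arrays, so the deposited scaling was kept.

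Of the probe sets, 34958 name 1 gene, 932 name several and were not used for genes, and 9211 are unnamed here. Values were taken as log2(intensity + 16), so folds of dim genes are understated. The dimmest 40% of probe sets were left out, which left 27023, and the brightest probe set stood for its gene. All 10 members passed this filter with signal in every array. Of their 25 probe sets 21 passed it, some of them under the floor in all arrays. Groups were compared with lmFit and eBayes of limma 3.58.1 (two-sided; R 4.3.3), with Benjamini-Hochberg adjustment over all 12277 genes. Results for other probe sets were adjusted over all 27023 probe sets. Named genes were all members, Epas1 and the called genes of 3 lists. Ezh2, the unadjusted members, the genes under the floor and other genes that did not pass are named as examples. The members and lists were chosen with earlier results of these data known. The script was tested on simulated data. Promoter sequences are from RefSeq, build GRCm38.p6. Figures were drawn with matplotlib 3.10.9.

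Alternatives changed the pseudocount, filter, scaling, eBayes settings, array weights, choice of probe sets, replicate block and spike-in covariate, averaged controls 1 and 3, or left out each array in turn.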

Additional observations from a re-analysis of the deposited data

How the results depend on the processing

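The number of genes called, 1683 over all arrays, was 883 without a filter, 8541 with array weights, 444 with the spike-in covariate, 194 with controls 1 and 3 averaged, and 207 to 3008 with 1 array left out. The array weights did not converge and gave knockout 1 a weight of 206, against 0.111 to 2.61 for the other arrays. With the replicate number as a block 2995 genes and 5 members were called, adding Kdm2b, Kdm3a and Kdm4c and losing Kdm2a. Same-numbered arrays did not all deviate together (correlation -0.47, 0.84 and 0.80 for numbers 1 to 3), so the numbers were not taken as pairs. The number of members called, 3 over all arrays, was 8 with array weights, 1 without a filter, with the dimmest 60% left out, with 75th percentile scaling, with means of probe sets and with controls 1 and 3 averaged, and 1 to 2 with 1 array left out, Kdm5b each time. The settings not named here gave 2 to 4. Differences that turned sign were those of Kdm3b with array weights (0.011), Kdm4a with the spike-in covariate (-0.084) and without knockout 2 (-0.015, in a range up to 0.24 with 1 array left out), Kdm4b with the covariate (-0.10) and Kdm4c with the covariate (0.0094). None of these 3 genes of the KDM4 group, nor Kdm3b, was called over all arrays. The cause was not tested. For the 10 members, 159 of 200 recomputed differences kept direction and side of the threshold, 27 lost a call and 9 gained one. Most of the 159 were of genes not called over all arrays, and all lost calls were of Kdm2a and Kdm6b. Kdm2a was called in 0 of 6 cases of 1 array left out and in 2 of 14 other alternatives. For Kdm6b these counts were 2 of 6 and 9 of 14. Signal near the floor limits 9 of the 25 probe sets.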

Other observations

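Some of the wide differences among other JmjC family genes were in genes that did not pass the test, Kdm7a, Jmjd1c and Kdm5a, which are named after their values were seen. Kdm7a, a JmjC demethylase with a PHD finger, read 319, 234 and 1629 in knockouts, against 4333, 2003 and 4990 in controls. Its log2 difference of -2.77 ± 0.87 (limma adjusted p = 0.105) had a 95% interval of -5.04 to -0.50. Its second probe set was called on its own when all probe sets were tested, with means of 100.4 in knockouts and 385 in controls (adjusted p = 0.0386). Jmjd1c, a relative of Kdm3a and Kdm3b, had a log2 difference of -1.63 ± 0.64 (adjusted p = 0.162). Kdm5a, the closest relative of Kdm5b on the list and likewise an H3K4 demethylase, read 468, 228 and 916 in knockouts, against 1628, 1011 and 1915 in controls. The difference of Kdm5a, -1.63 ± 0.57 (adjusted p = 0.133), was about as large as that of Kdm5b, but its SE was 0.57, against 0.08 for Kdm5b. All 3 genes had knockout 2 lowest, knockout 3 highest and control 2 as the lowest control, the order seen in Kdm3a and Kdm4c. Among partner subunits, Phf21a, which reads unmethylated H3K4 in the CoREST complex, was 2730.0, 2477 and 1964 in knockouts, against 3513, 4352 and 3567 in controls (log2 difference -0.68 ± 0.16, adjusted p = 0.0583).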
